A study of Rattus norvegicus with 9 samples.

Results

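The genes described here are the kinesins, the kinesin light chains, the cytoplasmic dynein chains, the tubulins and 9 microtubule-associated proteins of the rat, read in retinal progenitor cells (RPCs) from the retina or from embryonic stem cells. They were taken by symbol from the array's annotation (Kif, Klc, Dync, Dynl and the Tuba, Tubb and Tubg genes, with Mapt, Map1a, Map1b, Map2, Map4, Map6, Map7, Dcx and Dclk1), and each gene was read from its probe set of highest mean signal. This gave 67 of the 14217 genes that a probe set of the array names alone. Of these, 61 passed the filter on low signals and were tested among 9953 genes, 54 were at or above the detection threshold on all 9 arrays, and 6 were not tested (Dynlt5, Kif12, Kif1b, Kif6, Tuba8 and Tubb1). Kif1b was read here only from a dim probe set, because other Kif1b probe sets also name a further gene.

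The cells were 3 replicates each of rESC-RPC2, rESC-RPC1 and P-RPC, described as independent biological repeats, with 1 Affymetrix Rat Genome 230 2.0 array per replicate. rESC-RPC2 and rESC-RPC1 were both differentiated from 1 rat embryonic stem cell (rESC) line, DA8-16 of the DA strain, first in floating aggregates and then, once these were digested, as adherent cells that were harvested on day 16. The adherent phase began on day 14 for rESC-RPC2 and on day 10 for rESC-RPC1, which also moved to N2 medium on day 14, so that the medium and the time of adherence change together. P-RPC were cells of the neural retina of Sprague-Dawley (SD) rats at postnatal day 1, dissociated with papain and with no sorting described, so that strain, tissue against culture and cell type change together in every comparison with P-RPC and cannot be told apart. Both comparisons with P-RPC share its 3 arrays.

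Microtubules are hollow polymers of alpha- and beta-tubulin on which kinesins, mostly towards the plus end, and dynein, towards the minus end, carry cargo. In dividing cells a set of kinesins builds and moves the mitotic spindle and completes cytokinesis. In neurons, which no longer divide, other kinesins, tubulin isotypes and microtubule-associated proteins build and supply axons and dendrites, and in a developing retina dividing progenitors and young neurons lie side by side.

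Signals are MAS 5.0 values on a linear scale, scaled by the authors to a common level on each array, and a signal counted as detected from 123 upwards, which is the median over all probe sets and arrays. A gene was called higher or lower where limma's adjusted p was under 0.05 and the log2 fold change was at least 1 in size. Log2 fold changes are given ± the moderated standard error. Signals of different genes come from different probes and are not compared with each other. P-RPC replicate 1 stood apart in lens markers, whose summed signal over 10 genes was 178 to 325 in rESC-RPC2, 237 to 332 in rESC-RPC1 and 129442, 1793 and 5320 on the 3 P-RPC arrays. Without that array 4 members were called higher and 6 lower in rESC-RPC1 against P-RPC, and 8 higher and 12 lower in rESC-RPC2 against P-RPC. Against the labels, retinal progenitor markers were at or above the threshold on all 3 arrays for 5 of 8 genes in rESC-RPC2, 6 of 8 in rESC-RPC1 and 7 of 8 in P-RPC, with Pax6 under it on every rESC-RPC2 array and Six3 under it in all groups. Photoreceptor markers were at or above it for 0 of 7 genes in rESC-RPC2, 0 of 7 in rESC-RPC1 and 5 of 7 in P-RPC. In the same order microglia markers were for 0, 0 and 5 of 10, endothelium for 0, 1 and 1 of 5, pigment epithelium for 1, 2 and 4 of 5 and red blood cell markers for 0, 0 and 1 of 2, and the pluripotent cell markers could not be read.

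Against P-RPC, rESC-RPC2 were lower in 9 of 10 kinesins of the spindle and of cytokinesis and higher in 7 of 14 members known from neurons, and rESC-RPC1 were lower in 4 and higher in 1 of the same genes. In rESC-RPC2 against P-RPC 8 members were called higher (13.1% of the 61, where 10.8% of all genes tested were) and 13 lower (21.3%, where 13.0% of all genes were). In rESC-RPC1 against P-RPC 4 were called higher (6.56%, against 12.0% of all genes) and 7 lower (11.5%, against 9.56%). In rESC-RPC2 against rESC-RPC1 5 were called higher (8.2%, against 5.08%) and 1 lower (1.64%, against 9.24%). The shares of all genes given here are also the background for the counts of each list below. The lists were chosen with earlier results of these data known, so that setting them beside these shares is no test. In all, 25 members were called in at least 1 comparison and 36 in none. The median log2 fold change of the tested members was 0.12, -0.09 and 0.11 in these 3 comparisons in the order given, and that of all genes was -0.02, -0.01 and -0.03.

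Kinesins of the spindle and of cytokinesis were taken up first, since the 4 that head the contrast, Kif11, Kif18a, Kif20a and Kif2c, belong to them. The proximal promoters of these 4 are shown, with those of Kif20b, Kif22 and Kif23, as RefSeq sequence of build GRCr8 on the strand of the gene, running 5′ to 3′ over 150 bases from 100 before the annotated start. Capitals mark 2 motifs known from promoters of mitotic genes, the cell cycle homology region (TTTGAA) and the CCAAT box (CCAAT), searched on both strands, so that ATTGG and TTCAAA are the same motifs on the other strand. The motifs share no overlapping match in these stretches. The coordinates are chr1:244536767-244536916 (plus strand) for Kif11, chr3:116218907-116219056 (plus) for Kif18a, chr18:26504322-26504471 (plus) for Kif20a and chr5:135899163-135899312 (minus) for Kif2c. They are chr1:241840916-241841065 (plus) for Kif20b, chr1:191080829-191080978 (minus) for Kif22 and chr8:71320535-71320684 (minus) for Kif23.
Kif11: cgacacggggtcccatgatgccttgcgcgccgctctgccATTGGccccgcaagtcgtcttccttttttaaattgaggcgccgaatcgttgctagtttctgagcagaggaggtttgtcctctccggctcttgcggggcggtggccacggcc
Kif18a: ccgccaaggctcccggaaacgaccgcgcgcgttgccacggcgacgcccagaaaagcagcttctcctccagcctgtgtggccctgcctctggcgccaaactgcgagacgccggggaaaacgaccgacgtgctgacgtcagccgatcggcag
Kif20a: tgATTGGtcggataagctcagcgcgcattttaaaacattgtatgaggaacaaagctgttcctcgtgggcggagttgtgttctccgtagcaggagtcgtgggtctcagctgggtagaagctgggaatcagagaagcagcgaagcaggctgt
Kif2c: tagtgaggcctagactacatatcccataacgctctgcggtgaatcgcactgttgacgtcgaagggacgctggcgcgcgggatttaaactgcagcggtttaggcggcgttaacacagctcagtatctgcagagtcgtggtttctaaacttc
Kif20b: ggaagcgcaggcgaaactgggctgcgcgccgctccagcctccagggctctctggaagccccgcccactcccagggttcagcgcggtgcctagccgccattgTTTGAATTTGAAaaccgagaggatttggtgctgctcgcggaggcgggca
Kif22: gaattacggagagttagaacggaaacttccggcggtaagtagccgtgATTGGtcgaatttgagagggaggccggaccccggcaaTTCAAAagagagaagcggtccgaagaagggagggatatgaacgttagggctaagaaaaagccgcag
Kif23: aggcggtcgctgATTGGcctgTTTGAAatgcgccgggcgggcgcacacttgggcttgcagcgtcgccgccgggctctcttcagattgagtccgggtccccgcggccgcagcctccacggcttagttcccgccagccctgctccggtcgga

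Over the whole window of 300 bases (250 before the start and 50 after), 57 members have a RefSeq sequence here. TTTGAA was in 4 of 9 windows of spindle and cytokinesis kinesins (Kif15, Kif20b, Kif22 and Kif23), in 0 of 11 of transport kinesins and in 18.1% of 27457 windows of all rat genes. CCAAT was in 5 of 9 (Kif11, Kif20a, Kif20b, Kif22 and Kif23), in 3 of 11 and in 37.7%. Kif20b, Kif22 and Kif23 held both, as did 7.25% of all windows. In Kif22 the nearest CCAAT box began 53 and TTTGAA 16 bases before the start, and in Kif23 the 2 motifs began 88 and 79 bases before it, side by side. Kif18a and Kif2c held neither. A match describes these letters only, and with 9 windows the shares are a description.

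Of the 10 spindle and cytokinesis kinesins, 9 were called lower in rESC-RPC2 against P-RPC, 4 in rESC-RPC1 against P-RPC and 0 in rESC-RPC2 against rESC-RPC1. The median log2 fold change of the 10 was -1.29, -0.82 and -0.55 in these comparisons. In rESC-RPC2 all 10 had every array below every P-RPC array, where 37.7% of all genes tested did, and in rESC-RPC1 all but Kif20a did, against 33.7% of all genes. Fewer dividing cells in a sample and less of such RNA per cell cannot be told apart in these bulk samples.

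Kif18a, a plus-end motor that dampens the movements of chromosomes on the spindle, had a signal of 269.9, 371 and 264 on the rESC-RPC2 arrays, 516, 413 and 472 on the rESC-RPC1 arrays and 3639, 3307 and 2811 on the P-RPC arrays. Every rESC-RPC array lay far below the lowest P-RPC array, and the rESC-RPC2 arrays all lay below the rESC-RPC1 arrays. It was called lower in rESC-RPC2 (-3.44 ± 0.15, adjusted p = 6.22e-08) and in rESC-RPC1 (-2.80 ± 0.15, adjusted p = 2.34e-07), and between the rESC-RPCs it did not pass the fold threshold (-0.64 ± 0.15, adjusted p = 0.00608). Kif11, the motor that pushes spindle poles apart, had signals of 1222, 1055 and 974 in rESC-RPC2, 1636, 1421 and 1721 in rESC-RPC1 and 2566, 2757 and 2695 in P-RPC. The 3 groups did not overlap and stood in this order, and the step to P-RPC was called for rESC-RPC2 (-1.31 ± 0.10, adjusted p = 2.59e-06) but was under the fold threshold for rESC-RPC1 (-0.75 ± 0.10, adjusted p = 0.000142). With the second, dimmer probe set of Kif11 it was called lower in rESC-RPC1 too (-1.02, adjusted p = 0.000565). Kif11 in rESC-RPC2 against rESC-RPC1 was -0.56 ± 0.10 (adjusted p = 0.00147), also under that threshold.

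Kif2c, a kinesin that takes microtubules apart at kinetochores, had signals of 507, 431 and 342 in rESC-RPC2, 584, 508 and 606 in rESC-RPC1 and 1039, 863 and 939 in P-RPC. Its rESC-RPC arrays lay below all P-RPC arrays, and the highest of rESC-RPC2 lay only just below the lowest of rESC-RPC1. It was called lower in rESC-RPC2 (-1.17 ± 0.15, adjusted p = 6.67e-05) and not in rESC-RPC1 (-0.74 ± 0.15, adjusted p = 0.00148), and between the rESC-RPCs it was -0.42 ± 0.15 (adjusted p = 0.0374). Kif20a, needed at the central spindle for cytokinesis, was the exception of the 10, with signals of 1392, 966 and 1137 in rESC-RPC2, 1735, 1368 and 2101 in rESC-RPC1 and 2129, 2048 and 2212 in P-RPC. Its rESC-RPC1 arrays were spread widely and the highest of them lay within the P-RPC range. It was called in no comparison, with -0.89 ± 0.16 in rESC-RPC2 against P-RPC (limma's adjusted p = 0.000786), -0.32 ± 0.16 for rESC-RPC1 against P-RPC (adjusted p = 0.115) and -0.57 ± 0.16 between the rESC-RPCs (adjusted p = 0.0148), although without rESC-RPC2 replicate 1 it was called lower in rESC-RPC2 against P-RPC (-1.02).

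Among the other spindle and cytokinesis kinesins, Kif15, which works beside Kif11 on the spindle, had signals of 1024, 874 and 936 in rESC-RPC2, 1415, 1284 and 1203 in rESC-RPC1 and 3477, 3036 and 3311 in P-RPC. Kif20b, which acts late in cytokinesis, had 495, 629 and 648 in rESC-RPC2, 469, 539 and 488 in rESC-RPC1 and 2085, 2032 and 2071 in P-RPC. Both were far lower in all 6 rESC-RPC arrays than in any P-RPC array, and Kif20b was the member of the group whose rESC-RPC2 mean was not below its rESC-RPC1 mean. Kif15 was called lower in rESC-RPC2 (-1.79 ± 0.10, adjusted p = 1.9e-07) and in rESC-RPC1 (-1.33 ± 0.10, adjusted p = 1.41e-06). So was Kif20b, at -1.81 ± 0.11 (adjusted p = 5.06e-07) and -2.05 ± 0.11 (adjusted p = 2.55e-07). Kif14, a cytokinesis kinesin of low signal, was also called lower in both, at -1.56 ± 0.17 and -1.01 ± 0.17. Its call in rESC-RPC1 against P-RPC was just past the fold threshold. That call was lost without P-RPC replicate 1 or 3 (-0.91 and -0.95) and with median centring (-0.985). Kif18b, Kif22 and Kif23, which act on astral microtubules, chromosome arms and the midzone of the dividing cell, were called lower in rESC-RPC2 against P-RPC, at -1.24 ± 0.09, -1.26 ± 0.12 and -1.20 ± 0.12, while in rESC-RPC1 against P-RPC they stayed under the fold threshold, at -0.64 ± 0.09, -0.53 ± 0.12 and -0.89 ± 0.12. Between rESC-RPC2 and rESC-RPC1 none of the 10 was called, with 9 negative values and 7 of 10 with all rESC-RPC2 arrays below all rESC-RPC1 arrays, where 29.6% of all genes tested had them so. The largest of them in size was Kif22, at -0.73 ± 0.12 (adjusted p = 0.000764).

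**Figure D1:**
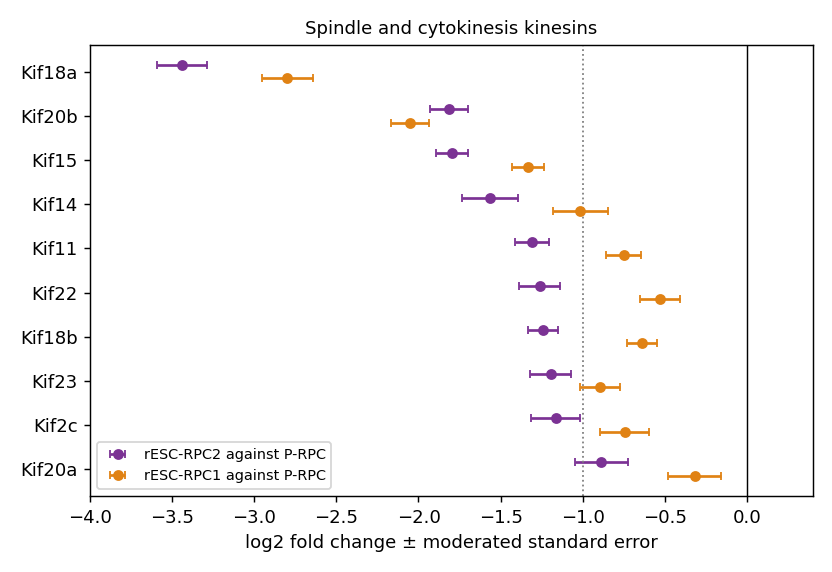
Log2 fold changes of the 10 spindle and cytokinesis kinesins, with moderated standard errors as bars, in rESC-RPC2 against P-RPC (purple) and in rESC-RPC1 against P-RPC (orange). Both share the P-RPC arrays, and the dotted line is the fold threshold. All 20 values are below 0, from -3.44 for Kif18a to -0.32 for Kif20a, and 9 of the rESC-RPC2 and 4 of the rESC-RPC1 values lie past the line.

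Genes that work with these kinesins in mitosis were counted beside them. Of 25 such genes tested, 18 were called lower in rESC-RPC2 against P-RPC (72%, against 13.0% of all genes tested). In rESC-RPC1 against P-RPC 10 were called lower (40%, against 9.56%). None was called higher, and 0 were called between the rESC-RPCs. Their medians were -1.32, -0.88 and -0.38. Nusap1, which bundles spindle microtubules, had signals of 1674, 1615 and 1552 in rESC-RPC2, 2734, 2668 and 2613 in rESC-RPC1 and 7001, 6517 and 6673 in P-RPC. Mki67, the source of the proliferation antigen Ki-67, had 2263, 1871 and 1940.0 in rESC-RPC2, 3061, 2792 and 3206 in rESC-RPC1 and 6915, 6869 and 6922 in P-RPC. For both the 3 groups were apart, with rESC-RPC2 the lowest and P-RPC the highest. These are RNA signals of bulk samples. For Ki-67 protein, the paper's flow cytometry gave similar percentages of positive cells in rESC-RPC1 and rESC-RPC2. The 8 retinal progenitor markers on the array, whose part in these values was not tested, had a summed signal of 13044 to 14352 in rESC-RPC2, 17389 to 26269 in rESC-RPC1 and 49914 to 51518 in P-RPC.

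The members known from neurons were counted as 14 genes, which are the heavy chains and motors Kif1a, Kif3c, Kif5a and Kif5c, the dynein chain Dync1i1, the tubulins Tubb3 and Tubb4a, and Mapt, Map1a, Map1b, Map2, Map6, Dcx and Dclk1. In rESC-RPC2 against P-RPC 7 of the 14 were called higher, 0 lower, all 14 values were positive and 13 had every rESC-RPC2 array above every P-RPC array, where 35.3% of all genes tested did. In rESC-RPC1 against P-RPC 1 was called higher (Dclk1), with 9 values positive and 5 negative, and 7 had every rESC-RPC1 array above the P-RPC arrays, against 32.7% of all genes. In rESC-RPC2 against rESC-RPC1 5 were called higher and 0 lower, and 11 had every rESC-RPC2 array above the rESC-RPC1 arrays, against 24.3% of all genes. The medians were 1.00, 0.30 and 0.84. Since the 14 were chosen with results of these arrays known, these counts depend on the choice and are a description.

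The promoters of 2 of the genes that were called both against P-RPC and between the rESC-RPCs are shown for comparison with the mitotic ones, with the same capitals, as RefSeq sequence of GRCr8 over the same 150 bases. They lie at chr19:68365587-68365736 (plus strand) for Tubb3 and at chrX:112304112-112304261 (minus strand) for Dcx.
Tubb3: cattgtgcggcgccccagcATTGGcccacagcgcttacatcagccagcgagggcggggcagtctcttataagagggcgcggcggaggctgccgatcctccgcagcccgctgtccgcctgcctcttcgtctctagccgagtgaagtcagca
Dcx: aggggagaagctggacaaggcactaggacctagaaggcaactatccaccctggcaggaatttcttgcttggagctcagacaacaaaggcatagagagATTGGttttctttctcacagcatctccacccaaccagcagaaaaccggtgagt
TTTGAA was in neither, and a CCAAT box began 81 bases before the start in Tubb3 and 3 bases before it in Dcx. Of the 11 neuronal members with a window of 300 bases, 2 held TTTGAA (Map1a and Map2) and 3 held CCAAT. Tubulin genes held CCAAT in 7 of 11 windows.

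Dcx, the microtubule-bundling protein of migrating young neurons, had signals of 5893, 6684 and 7275 in rESC-RPC2, 1911, 2756 and 1467 in rESC-RPC1 and 2071, 2189 and 1957 in P-RPC. The rESC-RPC2 arrays all stood above the other 6, and the rESC-RPC1 arrays were spread to both sides of the P-RPC arrays. It rose in rESC-RPC2 against P-RPC (1.67 ± 0.19, limma's adjusted p = 2.48e-05) and against rESC-RPC1 (1.74 ± 0.19, adjusted p = 4.17e-05), with -0.07 ± 0.19 in rESC-RPC1 against P-RPC (limma's adjusted p = 0.775). Mapt, which encodes tau of axons, had 7345, 7079 and 7619.6 in rESC-RPC2, 2817, 3348 and 2525 in rESC-RPC1 and 1924, 2116 and 1998 in P-RPC. All 3 groups were apart, with rESC-RPC2 highest and P-RPC lowest. It was called higher in rESC-RPC2 against P-RPC (1.87 ± 0.10, limma's adjusted p = 1.7e-07) and against rESC-RPC1 (1.35 ± 0.10, adjusted p = 4.72e-06), and the 3 probe sets of the gene gave 1.87 to 1.96 and 1.35 to 1.64 in these 2 comparisons. In rESC-RPC1 against P-RPC Mapt was 0.52 ± 0.10 (adjusted p = 0.00108), under the fold threshold.

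Tubb3, the beta-tubulin isotype used as a marker of neurons, had signals of 6792, 6860.4 and 6535 in rESC-RPC2, 2634, 3068 and 1834 in rESC-RPC1 and 3149, 3446 and 2950.1 in P-RPC. The rESC-RPC2 arrays were the highest, with the rESC-RPC1 and P-RPC arrays overlapping. Tubb3 was called higher in rESC-RPC2 against P-RPC (1.08 ± 0.15, limma's adjusted p = 0.000144) and against rESC-RPC1 (1.45 ± 0.15, adjusted p = 4.02e-05), and not in rESC-RPC1 against P-RPC (-0.37 ± 0.15, limma's adjusted p = 0.0588). Map2, a protein of dendrites, had 10837, 12693 and 12488 in rESC-RPC2, 6996, 9628 and 5649.7 in rESC-RPC1 and 5154, 5348 and 4867 in P-RPC. Here too no group overlapped another, although the rESC-RPC1 arrays differed widely among themselves. It was called higher in rESC-RPC2 against P-RPC (1.23 ± 0.16, limma's adjusted p = 6.56e-05), while in rESC-RPC1 against P-RPC (0.50 ± 0.16, limma's adjusted p = 0.0174) and between the rESC-RPCs (0.72 ± 0.16, adjusted p = 0.00326) it stayed under the fold threshold.

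**Figure D2:**
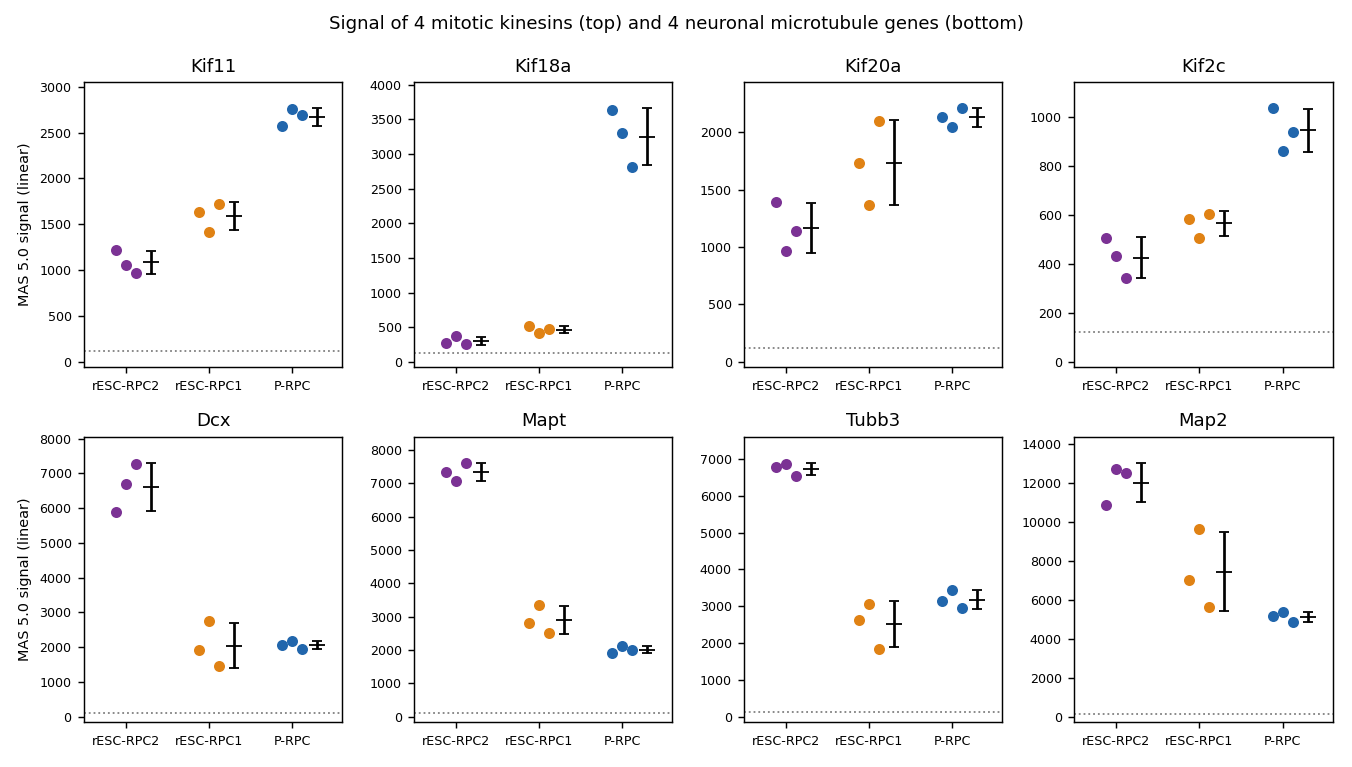
Linear MAS 5.0 signal on each array of 4 mitotic kinesins (top) and 4 neuronal members (bottom) in rESC-RPC2, rESC-RPC1 and P-RPC, where points are arrays, black marks are means with SD (n = 3) and the dotted line is the detection threshold of 123. On every rESC-RPC2 array the mitotic kinesins lie below and the neuronal members above the P-RPC arrays, and the rESC-RPC1 arrays of Dcx, between 1467 and 2756, lie on both sides of those of P-RPC.

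Of the kinesin-1 heavy chains, which haul organelles along axons, Kif5a had signals of 836, 897 and 794 in rESC-RPC2, 279.5, 319 and 247 in rESC-RPC1 and 532, 487 and 443 in P-RPC. P-RPC lay between the 2 kinds of rESC-RPCs, with no overlap. Kif5a rose in rESC-RPC2 against rESC-RPC1 (1.59 ± 0.12, adjusted p = 6.83e-06), while against P-RPC its values of 0.79 ± 0.12 in rESC-RPC2 and -0.79 ± 0.12 in rESC-RPC1 were of opposite sign and under the fold threshold. Its second probe set gave 0.83 between the rESC-RPCs, which was not called. Kif5c had 1399.7, 1642 and 1518 in rESC-RPC2, 733, 907 and 790.1 in rESC-RPC1 and 658, 567 and 507 in P-RPC, and was called higher in rESC-RPC2 against P-RPC (1.40 ± 0.12, limma's adjusted p = 5.06e-06). Kif5b, the heavy chain found in most cell types, was called in no comparison, with 0.11 ± 0.08, 0.00 ± 0.08 and 0.11 ± 0.08 in rESC-RPC2 against P-RPC, rESC-RPC1 against P-RPC and rESC-RPC2 against rESC-RPC1. Its second, dimmer probe set gave 0.96 in rESC-RPC2 and 0.74 in rESC-RPC1 against P-RPC, also not called.

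Among the kinesin-2 motors, which serve axons and cilia, Kif3c, found mainly in neurons, had signals of 1823, 1964 and 2002 in rESC-RPC2, 1352, 1308 and 1502 in rESC-RPC1 and 746, 707 and 728 in P-RPC. The groups stood in that order without overlap. Kif3c was called higher in rESC-RPC2 against P-RPC (1.41 ± 0.09, limma's adjusted p = 3.84e-07), and in rESC-RPC1 against P-RPC it missed the fold threshold (0.93 ± 0.09, adjusted p = 7.33e-06). Its partners Kif3a and Kif3b were called nowhere, with 0.16 ± 0.11 for Kif3a and 0.85 ± 0.08 for Kif3b in rESC-RPC2 against P-RPC. Over the 11 transport kinesins tested, 2 were called higher and 1 lower in rESC-RPC2 against P-RPC, 0 and 1 in rESC-RPC1 against P-RPC, and 1 and 0 between the rESC-RPCs, and the medians were 0.79, 0.26 and 0.48. The lower ones were Kif16b, a motor of endosomes, in rESC-RPC2 against P-RPC (-1.01 ± 0.18, limma's adjusted p = 0.000756) and Kif21a, which restrains microtubule growth, in rESC-RPC1 against P-RPC (-1.19 ± 0.16, limma's adjusted p = 0.000106). Kif16b had signals of 182, 213 and 143 in rESC-RPC2, 361, 275 and 375 in rESC-RPC1 and 354, 318 and 402 in P-RPC, and its call was lost without P-RPC replicate 3 (-0.92), without rESC-RPC2 replicate 3 (-0.86) and with median centring (-0.93) or quantile normalization (-0.95). Kif21a had 2151, 2662 and 2642 in rESC-RPC2, 1507, 1861 and 1127 in rESC-RPC1 and 3495, 3266 and 3266 in P-RPC, with the lowest level on all rESC-RPC1 arrays, and without rESC-RPC1 replicate 3 it stayed just short of the threshold at -0.996.

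Of the remaining neuronal members, Kif1a, the motor of synaptic vesicle precursors, had signals of 192, 194 and 238 in rESC-RPC2, 139, 120.1 and 108 in rESC-RPC1 and 105, 101 and 146 in P-RPC, close to the detection threshold in the last 2 groups. It was not called (0.84 ± 0.20 in rESC-RPC2 against P-RPC, 0.76 ± 0.20 between the rESC-RPCs), although its second probe set was called higher between the rESC-RPCs at 1.33. That probe set had a mean signal of 163 in rESC-RPC2 and of 70.9 in rESC-RPC1, under the threshold, so that the size of this difference is uncertain. Tubb4a, a beta-tubulin isotype of the nervous system, had 746, 768 and 739 in rESC-RPC2, 306, 307 and 283 in rESC-RPC1 and 432, 391 and 373 in P-RPC. Its groups were apart, and it was called higher in rESC-RPC2 against rESC-RPC1 (1.33 ± 0.10, adjusted p = 5.85e-06) and was just under the fold threshold in rESC-RPC2 against P-RPC (0.92 ± 0.10, limma's adjusted p = 2.43e-05). With the second probe set of Tubb4a the difference between the rESC-RPCs was 1.20 with an adjusted p of 0.0590. Map6, which stabilizes microtubules, and Map1b, the early microtubule-associated protein of growing axons, were not called, at 0.78 ± 0.10 and 0.52 ± 0.06 in rESC-RPC2 against P-RPC, where the second probe set of Map6 ran the other way at -0.39 and that of Map1b was called higher at 1.28. Map1a was the neuronal member whose rESC-RPC2 and P-RPC arrays overlapped (137, 138 and 124 in rESC-RPC2, 203, 219.5 and 222 in rESC-RPC1 and 62.9, 147 and 199 in P-RPC).

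Setting the 4 mitotic members against the 14 neuronal ones on each array gives the contrast in 1 value, the mean log2 signal of the first minus that of the second. This score was -1.38, -1.58 and -1.73 on the rESC-RPC2 arrays, -0.14, -0.60 and 0.05 on the rESC-RPC1 arrays and 1.31, 1.19 and 1.20 on the P-RPC arrays. No array of one group overlapped another group, and rESC-RPC1 varied most, at -0.23 ± 0.33 (SD, n = 3), against -1.56 ± 0.18 in rESC-RPC2 and 1.23 ± 0.07 in P-RPC. The mean difference was -2.80 in rESC-RPC2 against P-RPC, -1.46 in rESC-RPC1 against P-RPC and -1.33 in rESC-RPC2 against rESC-RPC1. The mitotic mean was 9.30 ± 0.15 in rESC-RPC2, 9.84 ± 0.18 in rESC-RPC1 and 11.00 ± 0.05 in P-RPC, a difference of -1.15 between rESC-RPC1 and P-RPC and of -0.55 in rESC-RPC2 against rESC-RPC1. The gap between these 2 differences came mostly from Kif18a. In rESC-RPC1 against P-RPC Kif18a had -2.80, where Kif11, Kif2c and Kif20a had -0.75, -0.74 and -0.32. Between the rESC-RPCs the same genes had -0.64, -0.56, -0.42 and -0.57, and for Kif20a this step was the larger. The neuronal mean was 10.86 ± 0.04 in rESC-RPC2, 10.07 ± 0.16 in rESC-RPC1 and 9.76 ± 0.02 in P-RPC, a difference of 0.31 between rESC-RPC1 and P-RPC and of 0.79 in rESC-RPC2 against rESC-RPC1. With second probe sets, which 2 of the 4 mitotic and 12 of the 14 neuronal members have, the mitotic differences were -1.17 and -0.50, while the neuronal ones were 0.68 and 0.64, so that the order of the neuronal differences turned round. The second probe sets of Kif3c, Tubb3 and Dcx were under the filter on low signals. The score has no absolute meaning, since it rests on different probes, and it was not tested because its members were chosen with results of these arrays known.

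**Figure D3:**
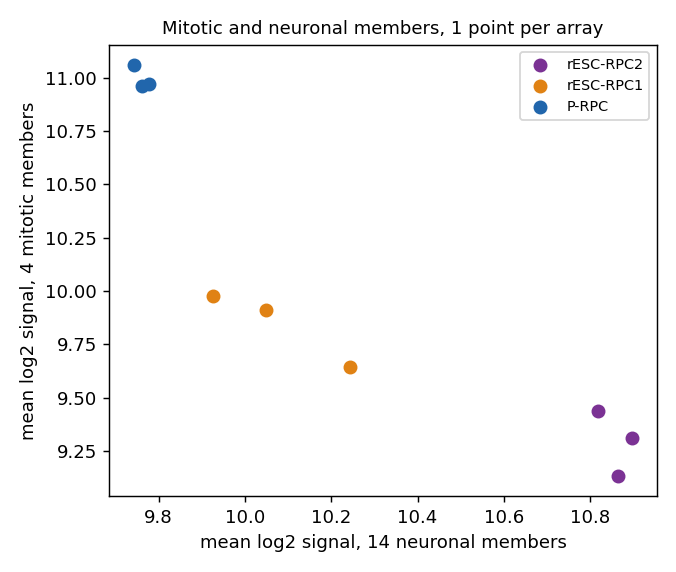
Mean log2 signal of 4 mitotic members (vertical) against that of 14 neuronal members (horizontal), 1 point per array, for rESC-RPC2 (purple), rESC-RPC1 (orange) and P-RPC (blue). The groups lie apart on both axes. The mean step in mitotic members is -1.15 in rESC-RPC1 against P-RPC and -0.55 in rESC-RPC2 against rESC-RPC1. The gap between these comes mostly from Kif18a (-2.80 and -0.64). The neuronal steps are 0.31 and 0.79, or 0.68 and 0.64 with second probe sets.

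The part of other cell types in the neuronal values was not tested, and their markers are given beside them. Of 8 neuron markers that are no members, 8 were at or above the threshold on all arrays of rESC-RPC2, 7 in rESC-RPC1 and 7 in P-RPC, with Syt1 under it on all arrays of the last 2. Their summed signal was 19045 to 21993 in rESC-RPC2, 7473 to 10133 in rESC-RPC1 and 12018 to 14829 in P-RPC. This sum was highest in rESC-RPC2 and lowest in rESC-RPC1. The mean log2 signal of the 14 neuronal members was also highest in rESC-RPC2, but its lowest group was P-RPC. Taken singly, the members were divided, since 5 of the 14 (Dcx, Kif5a, Map6, Tubb3 and Tubb4a) had negative values for rESC-RPC1 against P-RPC and 9 positive ones. Astrocyte and glia markers, of which 3, 5 and 2 of 6 were at or above the threshold in rESC-RPC2, rESC-RPC1 and P-RPC, summed to 4191 to 5292, 8925 to 17325 and 6210 to 6933 in the same order, with Gfap under it in P-RPC. Mesenchyme and smooth muscle markers, 5, 5 and 2 of 8, summed to 9225 to 16728 in rESC-RPC2, 17531 to 42941 in rESC-RPC1 and 702 to 795 in P-RPC, with Dcn under the threshold in all 3 groups.

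**Figure D4:**
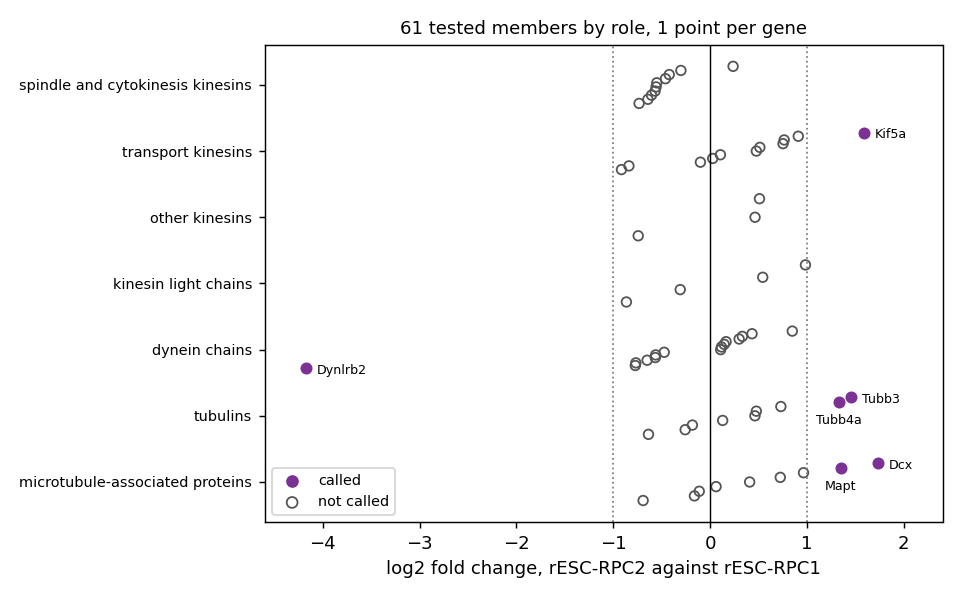
Log2 fold change, rESC-RPC2 against rESC-RPC1, of all 61 tested members, 1 point per gene, arranged by role, with called genes filled and named and dotted lines at the fold threshold. Of the 10 spindle and cytokinesis kinesins 9 lie below 0 and none is called, while Dcx (1.74), Kif5a (1.59), Tubb3 (1.45), Mapt (1.35) and Tubb4a (1.33) lie past the threshold above 0 and Dynlrb2 (-4.17) below it.

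Dclk1 and Tubb6 were the members called higher in both kinds of rESC-RPCs against P-RPC. Dclk1, a kinase related to Dcx that binds microtubules, had signals of 5236, 5803 and 5972 in rESC-RPC2, 5909, 7686 and 5044 in rESC-RPC1 and 1223, 1188 and 1394 in P-RPC. All 6 rESC-RPC arrays were far above the P-RPC arrays, and the 2 kinds of rESC-RPCs overlapped. It rose in rESC-RPC2 (2.16 ± 0.14, adjusted p = 5.01e-07) and in rESC-RPC1 (2.27 ± 0.14, adjusted p = 4.13e-07). Of its 4 probe sets 3 passed the filter on low signals. These 3 gave 1.97 to 2.24 in rESC-RPC2 against P-RPC but 0.62 to 2.27 in rESC-RPC1 against P-RPC, where the second was not called. Between the rESC-RPCs they gave -0.11 to 1.35, and there the second was called higher in rESC-RPC2 (adjusted p = 8.14e-06). Which transcripts of the gene each probe set reads was not examined. Tubb6, a beta-tubulin isotype found in many cell types outside the nervous system, had 6091, 4092 and 4887 in rESC-RPC2, 4224, 3719 and 5921 in rESC-RPC1 and 1626, 1272 and 1784 in P-RPC. It was called higher in rESC-RPC2 (1.68 ± 0.19, adjusted p = 3.31e-05) and in rESC-RPC1 (1.55 ± 0.19, adjusted p = 6.59e-05), with the 2 kinds of rESC-RPCs overlapping. On the rESC-RPC2 arrays it ran highest in replicate 1 and lowest in replicate 2, and on the rESC-RPC1 arrays highest in replicate 3 and lowest in replicate 2, which is also the order of the summed mesenchyme and smooth muscle markers in both, whose part in the Tubb6 values was not tested.

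Of the 9 tubulins tested, 2 were called higher in rESC-RPC2 against P-RPC, 1 in rESC-RPC1 against P-RPC and 2 in rESC-RPC2 against rESC-RPC1, and none was called lower. The medians were 0.51, -0.02 and 0.46. Tubb2a and Tubb2b, both abundant in neurons, were higher on all rESC-RPC2 arrays than on all others without reaching the fold threshold, with 0.76 ± 0.07 for Tubb2a and 0.51 ± 0.06 for Tubb2b in rESC-RPC2 against P-RPC. Tubb5, a further beta-tubulin, was 0.22 ± 0.06 in rESC-RPC2 against P-RPC, and its second probe set ran the other way at -0.62. Tubg1, the gamma-tubulin that nucleates microtubules at centrosomes, was 0.25 ± 0.09 in rESC-RPC2 and 0.51 ± 0.09 in rESC-RPC1 against P-RPC. Coding sequences of tubulin genes are nearly alike, so that signal may be shared between them, and Tuba1a, Tuba1b and Tuba1c are not reported because their probe sets name several genes.

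Map7 and the kinesin light chain Klc3 were lower in both kinds of rESC-RPCs. Map7, which recruits kinesin-1 to microtubules, had signals of 51.4, 133 and 71.4 in rESC-RPC2, 67.5, 89.1 and 71.2 in rESC-RPC1 and 1039, 1173 and 1227 in P-RPC. All but 1 of the rESC-RPC arrays lay under the detection threshold. It was at least 9.33-fold lower in rESC-RPC1, whose 3 arrays were all under the threshold and set to it for this bound (adjusted p = 1.89e-06 on the measured values), and it was called lower in rESC-RPC2 (adjusted p = 1.83e-06), where 2 of 3 arrays were under the threshold and the size of the difference is therefore not given. Klc3 had 25.6, 36.5 and 41.3 in rESC-RPC2, 64.1, 84.6 and 43.0 in rESC-RPC1 and 365, 347 and 278 in P-RPC. It was at least 2.67-fold lower in both, with adjusted p of 8e-06 in rESC-RPC2 and 7.66e-05 in rESC-RPC1. The other light chains, which link kinesin-1 to cargo, were called in no comparison. Klc1, the light chain abundant in neurons, came close, with signals of 10059, 9484 and 9895 in rESC-RPC2, 4727, 5106 and 5047 in rESC-RPC1 and 6688, 6109 and 5966 in P-RPC. It was 0.98 ± 0.06 between the rESC-RPCs (adjusted p = 2.62e-06). Of its 4 probe sets, the 3 that passed the filter on low signals gave -0.49 to 0.98 there.

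Of the 15 cytoplasmic dynein chains tested, 0 were called higher and 1 lower in rESC-RPC2 against P-RPC, 2 higher and 0 lower in rESC-RPC1 against P-RPC, and 0 and 1 between the rESC-RPCs, with medians of 0.18, 0.15 and 0.11. Dync1h1, the heavy chain of the motor that serves most minus-end transport, had signals of 4932, 4799 and 4656 in rESC-RPC2, 3633, 3871 and 3920.0 in rESC-RPC1 and 4156, 4503 and 4080.3 in P-RPC. Its values of 0.18 ± 0.07 in rESC-RPC2 and -0.16 ± 0.07 in rESC-RPC1 against P-RPC were small and uncalled. The light chain Dynll2 was not called but stood higher on the rESC-RPC2 arrays (9056, 8891 and 8810.4) than on the rESC-RPC1 (5028, 5494 and 4394) and P-RPC arrays (4896, 5543 and 5483), and its second probe set was called higher in rESC-RPC2 against P-RPC at 1.31.

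All the calls in this group came from 2 genes. Dynlrb2, a roadblock light chain that is abundant in cells with cilia, had signals of 93.5, 139.7 and 127 in rESC-RPC2, 2035, 6415 and 746 in rESC-RPC1 and 412, 405 and 266 in P-RPC. The rESC-RPC1 arrays were all the highest and differed greatly among themselves, and those of rESC-RPC2 were near the threshold. Dynlrb2 rose in rESC-RPC1 against P-RPC (2.59 ± 0.59, limma's adjusted p = 0.0033) and fell in rESC-RPC2 against P-RPC (-1.58 ± 0.59, limma's adjusted p = 0.037) and against rESC-RPC1 (-4.17 ± 0.59, adjusted p = 0.000254). The call in rESC-RPC2 against P-RPC was lost without P-RPC replicate 1 or 2, rESC-RPC1 replicate 1 or any 1 of the rESC-RPC2 arrays, with adjusted p from 0.0529 to 0.107 and values from -1.70 to -1.41. The other gene, Dync2li1, codes for a chain of dynein-2, the motor that returns cargo to the base of the cilium. It had 988, 1048 and 1049 in rESC-RPC2, 1714, 2461 and 1268 in rESC-RPC1 and 636, 557 and 554 in P-RPC, with all 3 groups apart. It was called higher in rESC-RPC1 against P-RPC (1.59 ± 0.19, limma's adjusted p = 5.18e-05) and was 0.82 ± 0.19 in rESC-RPC2 against P-RPC.

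In rESC-RPC1 both genes were highest in replicate 2 and lowest in replicate 3, and this was also the order of Dynlt2b, a further dynein-2 chain (2936, 3497 and 1851), and of Foxj1, the transcription factor of motile cilia. The order was not particular to cilia genes, since 19 of the 61 tested members had it, Dcx, Map2 and Tubb3 among them, as did 25.9% of all genes tested and the summed astrocyte and glia markers (11526, 17325 and 8925). Foxj1 had signals of 183, 305 and 180.5 in rESC-RPC2, 743, 1122 and 544 in rESC-RPC1 and 118, 91.0 and 111 in P-RPC. The 2 motile cilia markers on the array, Foxj1 and Rsph1, summed to 255 to 412 in rESC-RPC2, 635 to 1564 in rESC-RPC1 and 224 to 288 in P-RPC, with 1 of 2 at or above the threshold on all arrays of each group and Rsph1 under it on every rESC-RPC2 array, and their part in the dynein values was not tested. Of 16 further genes of intraflagellar transport and axonemal dynein, 3 were called higher and 1 lower in rESC-RPC1 against P-RPC. These are 18.8% and 6.25%, where 12.0% and 9.56% of all genes tested were. In rESC-RPC2 against P-RPC 0 were called higher and 1 lower (6.25%, against 13.0%). In rESC-RPC2 against rESC-RPC1 0 were called higher and 2 lower (12.5%, against 9.24%). Dnali1, an axonemal dynein light intermediate chain, had 7.97, 56.0 and 81.5 in rESC-RPC2, 215, 371 and 169 in rESC-RPC1 and 51.5, 80.4 and 50.6 in P-RPC. Only its rESC-RPC1 arrays were above the threshold. The others called were Ift43, Dnal1, Ift74 and Ift122, of which Ift74 was lower in both kinds of rESC-RPCs against P-RPC (-1.39 ± 0.23 in rESC-RPC2 and -1.30 ± 0.23 in rESC-RPC1).

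**Figure D5:**
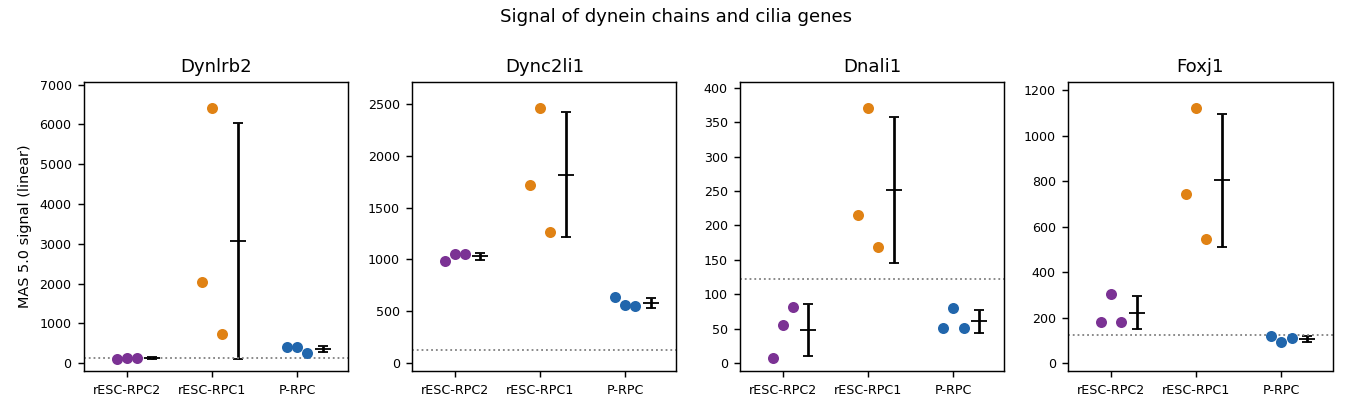
Linear MAS 5.0 signal on each array of the dynein chains Dynlrb2 and Dync2li1, the axonemal gene Dnali1 and the cilia factor Foxj1 in rESC-RPC2, rESC-RPC1 and P-RPC, where points are arrays in replicate order, black marks are means with SD (n = 3) and the dotted line is the detection threshold of 123. The rESC-RPC1 arrays are the highest in each panel and replicate 2 is the highest of them, at 6415 for Dynlrb2.

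The members not yet described were called in no comparison, and the values that follow are log2 fold changes against P-RPC unless another group is named. Kif13a, a vesicle motor, and Kif7, a ciliary kinesin of Hedgehog signalling, gave 0.81 ± 0.12 and -0.08 ± 0.12 in rESC-RPC2 and 0.78 ± 0.12 and 0.66 ± 0.12 in rESC-RPC1. Kif1c was -0.52 ± 0.19 in rESC-RPC2 and 0.32 ± 0.19 in rESC-RPC1, Kif2a 0.23 ± 0.08 and -0.23 ± 0.08, and Kif26b -0.07 ± 0.22 and -0.58 ± 0.22. The light chains Klc2 and Klc4 were -0.10 ± 0.13 and -0.96 ± 0.17 in rESC-RPC2, and Klc4 was called lower without rESC-RPC2 replicate 2 (-1.03, limma's adjusted p = 0.00143) and also without replicate 3. Map4, the microtubule-associated protein of most cell types, was -0.16 ± 0.08 and Tubb4b, a tubulin of cilia and many other sites, -0.44 ± 0.08 in rESC-RPC2. Tuba4a had signals of 93.8, 117 and 62.0 in rESC-RPC2, all under the threshold, 156, 95.2 and 172 in rESC-RPC1 and 173, 152 and 102 in P-RPC. The dynein-2 chains Dync2h1, Dync2i1 and Dync2i2 were -0.56 ± 0.22, -0.65 ± 0.20 and -0.77 ± 0.16 in rESC-RPC2 against rESC-RPC1, and the other dynein chains (Dync1i1, Dync1i2, Dync1li1, Dync1li2, Dynlrb1, Dynlt1 and Dynlt3) ran from -0.47 ± 0.12 for Dynlt3 to 0.60 ± 0.20 for Dync1i1 in rESC-RPC2 against P-RPC.

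The partners of these motors were counted in the same way. Of 17 tested genes of dynactin and dynein regulation, 4 were called lower in rESC-RPC2 against P-RPC (23.5%, against 13.0% of all genes tested). In rESC-RPC1 against P-RPC 3 were called lower (17.6%, against 9.56%). Between the rESC-RPCs 0 were called, and none was called higher in any comparison. Hook1, an adaptor that joins dynein to endosomes, had signals of 481, 645 and 765 in rESC-RPC2, 339, 347 and 307 in rESC-RPC1 and 8163, 9081 and 8250.1 in P-RPC. It showed a large difference from P-RPC on all 6 rESC-RPC arrays, with -3.78 ± 0.15 in rESC-RPC2 (adjusted p = 2.46e-08) and -4.68 ± 0.15 in rESC-RPC1 (adjusted p = 8.26e-09). The other calls were Nde1, Nin and Ninl in rESC-RPC2 and Spdl1 and Nin in rESC-RPC1, genes that act at centrosomes or kinetochores.

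Of 14 kinesin adaptors, 6 were called higher and 1 lower in rESC-RPC2 against P-RPC. These are 42.9% and 7.14%, where 10.8% and 13.0% of all genes tested were. In rESC-RPC1 against P-RPC 2 were higher and 3 lower (14.3% and 21.4%, against 12.0% and 9.56%). Between the rESC-RPCs 4 were higher (28.6%, against 5.08%) and 0 lower. Trak1 and Trak2, which hold mitochondria to kinesin-1, moved in opposite directions against P-RPC. Trak1 had signals of 1073, 1187 and 1377 in rESC-RPC2, 1428, 1702 and 1344 in rESC-RPC1 and 575, 615 and 597 in P-RPC. Trak2 had 784, 753 and 742 in rESC-RPC2, 791, 754 and 738 in rESC-RPC1 and 1501, 1800.1 and 1718 in P-RPC. Neither overlapped P-RPC in either kind of rESC-RPCs, with 1.02 ± 0.12 and 1.32 ± 0.12 for Trak1 in rESC-RPC2 and rESC-RPC1, and -1.14 ± 0.09 and -1.13 ± 0.09 for Trak2. Of 30 genes of microtubule dynamics and tubulin folding, 4 were called higher in rESC-RPC2 against P-RPC (13.3%, against 10.8% of all genes tested). In rESC-RPC1 against P-RPC 1 was called higher (3.33%, against 12.0%), and between the rESC-RPCs 3 were (10%, against 5.08%). In each comparison 0 were called lower. Camsap3, which caps minus ends, and the stathmins Stmn2 and Stmn3, which bind free tubulin in neurons, were the 3 between the rESC-RPCs, at 1.59 ± 0.13, 1.27 ± 0.11 and 1.30 ± 0.10.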

How the data were processed

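RNA of 9 samples (3 rESC-RPC2, 3 rESC-RPC1 and 3 P-RPC) was read on 1-colour Affymetrix arrays. The deposited values are linear intensities, which the authors made as MAS 5.0 signals per probe set in GeneSpring. The mean of each array after trimming 2% from each end was 500.2, and the medians ran from 113 to 128. No batch or scan date was given, and the number of arrays limits the precision. Here signals under 1 were set to 1, log2 was taken, and 9953 genes with at least 3 of 9 arrays at or above 123 (the 50th percentile) were fitted with limma 3.58.1 in R 4.3.3 (lmFit and eBayes with a trend), 1 mean per group, p-values adjusted by Benjamini-Hochberg over all genes. Calls needed an adjusted p under 0.05 together with a log2 change of 1 or more in size. The calculation was tested on simulated data. Of 31099 probe sets, 57 controls, 436 with several genes and 9780 with none were left out.

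All 67 symbols matched the rat RefSeq gene table. Of the members 37 have 1 probe set and 30 several, 117 in all. The members and all gene lists were chosen with earlier results of these data known. Every member may be named, with full statistics for the 4 mitotic kinesins, for neuronal members and for the largest called changes, and list genes by smallest adjusted p. Some further genes (Trak1, Trak2, Dnali1, Foxj1 and Hook1 among them) were given in full after their values were seen. Promoters were read from a RefSeq table of GRCr8, which holds 57 of the 67 members. A fold against a group with all 3 arrays under 123 is a bound, with the group set to 123. Deviations from the group mean correlated at r from -0.04 to 0.27 between arrays of the same replicate number, which were treated as unpaired. In 1 of 9 pairs, replicate 2 of rESC-RPC1 and of rESC-RPC2, r was over 0.1. The alternatives were median centring, quantile normalization, a stricter filter (6 of 9 arrays) or none, signals raised to the threshold, the second probe set, no trend, the methods' t-test, a fit of only the compared groups, a replicate block, and leaving out each array.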

Additional observations from a re-analysis of the deposited data

Results flagged for a closer look

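Dynlrb2 was called in opposite directions in the 2 kinds of rESC-RPCs against P-RPC, with log2 fold changes of -1.58 ± 0.59 in rESC-RPC2 and 2.59 ± 0.59 in rESC-RPC1. The difference between them was tested directly as rESC-RPC2 against rESC-RPC1, which gave -4.17 ± 0.59 (adjusted p = 0.000254). Its signals in rESC-RPC1 ran from 746 to 6415, and in rESC-RPC2 from 93.5 to 139.7, near the detection threshold.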

How the results depend on the processing

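Over 61 members, 3 comparisons and all alternatives, 3581 of 3621 member values kept their side of the threshold, 20 lost a call, 19 gained one and 1 turned round with a call. Among the 3581, 60 uncalled values changed sign. Many values could not move, since members with 1 probe set kept it and several alternatives leave the fold change as it is. The total is therefore no measure of how stable the values are. With the second probe set of the 30 members that have several, 52 members were tested, since 9 second probe sets (of Tubb6, Dcx and Tubb3 among them) fell under the filter on low signals. Then 2 members were called higher in rESC-RPC1 against P-RPC (4 of 61 with the first) and 3 in rESC-RPC2 against rESC-RPC1 (5 of 61 with the first), the difference of the mitotic minus neuronal score was -1.85 in rESC-RPC1 against P-RPC and -2.99 in rESC-RPC2 against P-RPC (-1.46 and -2.80), and Dclk1 in rESC-RPC2 against rESC-RPC1 turned round to 1.35. Leaving out 1 array gave 1 to 2 members called lower in rESC-RPC2 against rESC-RPC1 (1 with all arrays), the second being Kif16b without rESC-RPC1 replicate 2 or rESC-RPC2 replicate 2 and Klc3 without rESC-RPC1 replicate 3 or rESC-RPC2 replicate 3. The members that lost a call somewhere were Dclk1, Dynlrb2, Kif14 and Kif21a in rESC-RPC1 against P-RPC, Dynlrb2 and Kif16b in rESC-RPC2 against P-RPC, and Kif5a and Tubb4a between the rESC-RPCs. Those that gained one were Kif11 and Map1a in rESC-RPC1 against P-RPC, and Dynll2, Kif1a, Kif20a, Klc4 and Map1b in rESC-RPC2 against P-RPC. Between the rESC-RPCs they were Kif16b, Kif1a, Klc1, Klc3 and Map6, with Klc1 at 1.04 and Map6 at 1.02 under median centring. For Dynlrb2 the adjusted p rose to 0.0836 for rESC-RPC1 against P-RPC under the methods' t-test after Benjamini-Hochberg, and for rESC-RPC2 against P-RPC it was 0.0589 with signals raised to the threshold and 0.0598 without the trend. The cause of these changes was not tested. With the replicate block 2148, 2370 and 1429 genes were called in rESC-RPC1 against P-RPC, rESC-RPC2 against P-RPC and rESC-RPC2 against rESC-RPC1 (2144, 2368 and 1426 without it), and no call of a member changed. At the methods' unadjusted threshold the t-test called 2095, 2346 and 1337 genes, and 2006, 2306 and 1137 after Benjamini-Hochberg.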
